A study of Carica papaya with 12 samples.

Results

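The comparison was between 2 sizes of female flower buds of papaya (Carica papaya), 7–12 mm against 1–6 mm, and it used 4 of the 12 libraries of the study, 2 for each size. All genes were members of the comparison, and no gene was chosen by its counts. The buds came from untreated female plants of the variety 'AU9' and were pooled by size. Per the labels, buds of 1–6 mm were sampled before meiosis and those of 7–12 mm after it. The remaining libraries held male 'AU9' and hermaphrodite 'SunUp' buds of the same sizes, 2 libraries each. Hermaphrodites thus differ from the other sexes in variety as well as sex. Every replicate 1 came from single-end reads of a HiSeq2000, and every replicate 2 from paired-end reads of a HiSeq2500. Libraries of 1 number therefore share a platform, and the sizes were compared within the number. The comparison asks which genes change while a female bud grows, in a flower that makes a pistil and petals but no stamens.

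A papaya flower starts as a meristem that lays down sepals, petals, stamens and carpels in turn. MADS-box transcription factors such as PI, AP3 and SEP3 set which organ forms, and factors of the AINTEGUMENTA family keep the cells of a young organ dividing. As an organ matures, cells leave the division cycle, expand and build a wall, and hormones such as auxin, abscisic acid and brassinosteroids act on these steps. In female papaya the stamens do not develop, so genes of the anther and pollen lineage can serve as a check on the labels. The gene roles given here are those known from Arabidopsis or other model plants unless another source is named. In bulk samples, fewer cells of a type and less RNA per cell cannot be told apart.

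Small female buds gave 15201578 (replicate 1) and 8554135 (replicate 2) counts, and large ones 14539936 and 7430147. Values per library are CPM, counts relative to a library total that was rescaled by TMM, the trimmed mean of M-values, and expressed per 1000000 counts. Of 27689 genes, 23196 had a count in at least 1 of the 12 libraries and 19339 were tested. The test was edgeR's quasi-likelihood F test with the replicate number as a block, and every adjusted p here is its Benjamini-Hochberg value over all 19339 genes. A gene is said to have risen or fallen where this p was under 0.05, and to be called where the change also exceeded 2-fold. The standard error (SE) beside a change was derived from its F value. With 2 libraries a size, the smallest 2-sided p of an exact permutation test that ignores the pairing is 0.333. Pairing leaves still fewer arrangements, and the fit therefore borrows the spread of all 6 groups.

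Genes that mark stamens were at or near 0 in all 4 female libraries. The 7 anther genes were SPL/NZZ, which starts the sporogenous cells, the tapetum regulators DYT, TDF1 and the 2 AMS isoforms, and the PHD finger genes CpMS1 and CpMMD1. Together they held 4 (replicate 1) and 22 (replicate 2) counts in small buds, and 8 and 20 in large ones. This is a summed level of 0.29 to 2.70 CPM at 1–6 mm and of 0.547 to 2.74 CPM at 7–12 mm, and both sizes span nearly the same range. In the 8 male and hermaphrodite libraries the same sum was between 788 and 1878 CPM. There TDF1 held 252 to 650 CPM and AMS isoform 1 230 to 998 CPM, and not all 7 genes were high. CpMMD1 had 0.16 to 3.32 CPM in these libraries. CpMS1 had 0.13 and 0.0 CPM in small hermaphrodite buds, and DYT had 0.63 CPM in both libraries of large ones. None of the 7 genes passed the test between the female sizes, and no fold is given because their counts are too few. PI, the AP3 isoforms, SEP3 and the CRABS CLAW/HMG-box gene were present in each female library, as described below.

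More genes were lower than higher among the large changes of the growing female bud, and the excess was wider in the replicate 1 pair. Of the 19339 genes tested, 632 (3.27%) were called, 217 (1.12%) higher and 415 (2.15%) lower at 7–12 mm. Without the 2-fold limit 2708 genes passed (14.0%), 1178 higher (6.09%) and 1530 lower (7.91%), and 5301 genes had an unadjusted p under 0.05. The median log2 fold change of all tested genes was 0.015. The female groups did not overlap for 48.9% of all tested genes (25.0% higher and 23.9% lower at 7–12 mm), and for 216 of the 217 genes called higher and 411 of the 415 called lower. Without the replicate block 376 genes were called, 144 higher and 232 lower, and all but 6 of these were among the 632, since 370 were shared. The count was 266 without 1–6 mm replicate 1, 328 without 7–12 mm replicate 1 and 1162 without 7–12 mm replicate 2.

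The genes called lower held a small part of the counts of small buds. Summed over the 415 genes, the level was 32650 and 29560 CPM at 1–6 mm and 10790 and 14340 CPM at 7–12 mm. Over all tested genes the sums at 1–6 mm were 1100000 and 1050000 CPM. For the 217 genes called higher, the sum was 3871 and 4016 CPM at 1–6 mm and 10460 and 9600 CPM at 7–12 mm. These sums describe the genes as they were selected and are no test. Most changes were modest, and the median size of the log2 fold change was 1.40 among the genes called higher and 1.42 among those called lower. Changes above 4-fold were found for 32 genes higher and 87 lower, and above 8-fold for 11 and 19.

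Called genes were of lower level than most. The median of the mean female CPM was 5.93 for genes called higher, 11.1 for those called lower and 20.4 for all tested genes. Among 5166 genes with a mean of 1 to 10 CPM, 2.28% were called higher and 3.50% lower. Among 2409 genes with a mean of 100 CPM or more, 0.498% were called higher and 2.08% lower. Highly expressed genes that were called therefore fell in 50 cases and rose in 12. Genes placed as 1 uninterrupted exon made up 34.2% of the genes called lower, 25.3% of those called higher and 20.5% of all tested genes. The median coding length was 852 nt for the genes called lower, 1036 nt for those called higher and 936 nt for all.

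Of 18354 neighbouring pairs of tested genes that do not overlap, both members were called higher in 9 pairs and lower in 36, and 12 pairs held calls in opposite directions. In all, 85 of the 632 called genes had a neighbour called the same way. Of all tested genes 1.12% were called higher and 2.15% lower. Whether these pairs are more than such shares would give was not tested. A read with several alignments was counted at every one, so related neighbours may share reads.

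The sizes of the changes were not equal in the 2 replicate pairs. The 217 genes called higher had a median log2 ratio of 1.40 in the HiSeq2000 pair and 1.24 in the HiSeq2500 pair. For the 415 genes called lower it was -1.70 and -1.11. All 217 and 414 of the 415 moved the called way in the HiSeq2000 pair, and all 217 and all 415 did so in the HiSeq2500 pair. A change of over 2-fold was reached in both pairs by 140 of the genes called higher and 228 of those called lower. Over the 14988 genes with a mean of at least 5 CPM, the SD of the log2 ratio was 0.573 in the HiSeq2000 pair and 0.363 in the HiSeq2500 pair. In that set 306 genes were over 2-fold higher and 753 lower in the HiSeq2000 pair. In the HiSeq2500 pair 126 were higher and 184 lower, a smaller excess of lower genes. Platform, read layout and the buds themselves all change with the number and cannot be told apart.

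**Figure D1:**
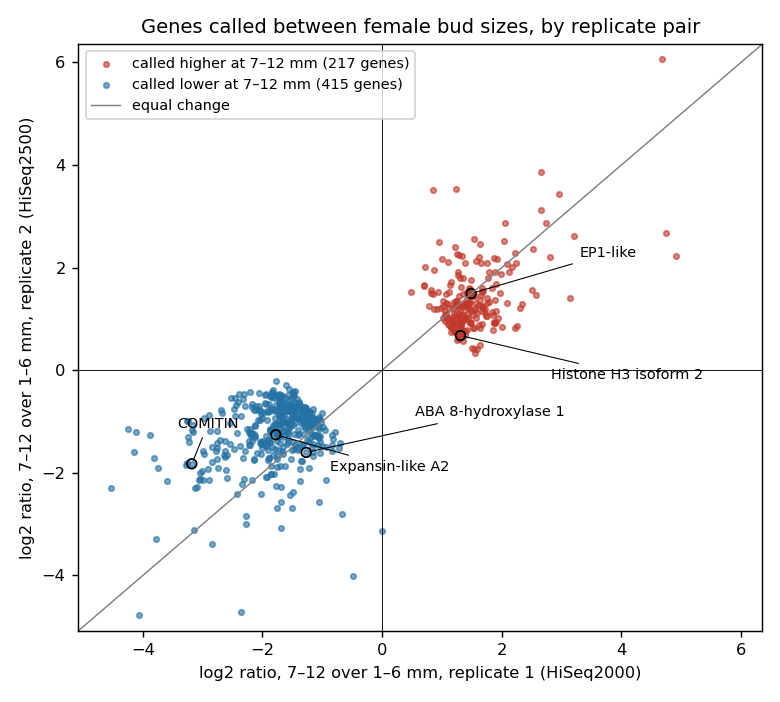
Log2 ratio of 7–12 over 1–6 mm in the replicate 1 pair (x axis, HiSeq2000) and the replicate 2 pair (y axis, HiSeq2500) for the 217 genes called higher (red) and the 415 called lower (blue) in female buds. Most blue points lie above the line of equal change, with medians of -1.70 on the x axis and -1.11 on the y axis, and EP1-like lies on the line.

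Some genes were almost silent at 1 size. Over both libraries of a size, 4 genes had at most 3 counts at 1–6 mm and at least 10 in each 7–12 mm library, and 5 genes had the reverse. The gene evm.model.supercontig_65.44 had 1 and 0 counts in small buds against 92 and 87 in large ones. Both large-bud libraries were far above both small-bud ones, with no overlap. The ratio of its summed counts was 179, with a 95% counting interval of 31.8 to 7119 that leaves out variation between libraries (adjusted p = 0.000215). Male libraries had no count of it, and the hermaphrodite libraries held at most 0.13 CPM. The gene evm.model.supercontig_75.61 had no counts in small buds and 18 and 13 in large ones, at least 10.35-fold higher against a floor of 3 counts over the group (adjusted p = 0.00672). The opposite was seen in evm.model.supercontig_17.107, with 32 and 13 counts in small buds and none in large ones, at least 15.0-fold lower (adjusted p = 0.00875). The gene evm.model.supercontig_129.37 had 6 and 8 counts in small buds and none in large ones, at least 4.66-fold lower (adjusted p = 0.012). These 4 called genes were chosen by the fitted change, which is no measure of size where a group has no counts, so they are not shown to be the largest changes. The sources used here pair none of them with a name, and each of the last pair was placed on 2 contigs.

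The named genes were the 83 that the study tabulated or discussed, in 9 lists. The study drew most of them from differences between the sexes in these libraries, so the lists are no random sample of papaya genes. Between the female sizes 11 of the 83 rose and 13 fell, of which 2 and 3 were over 2-fold, against 6.09% and 7.91% of all tested genes. The same shares, 6.09% and 7.91%, are the background for the counts of every list below. A list with 1 or 2 such genes is not shown to differ from them. The median log2 fold change of the 83 genes was 0.066. Of the 13 alternatives tried on single genes, the setting without a fold limit repeats the main fit. It cannot differ there, because single genes are judged by adjusted p alone. Without the replicate block 5 rose and 6 fell, and SEP3, TOP2, ANT gene B, Calmodulin, PAT1, RPK2, Xylan synthase, DUF642, AMT1-2, Spinster homolog 3, UGT80A2, Thioredoxin reductase 2-like and the PPR protein gene did not pass. Without 1–6 mm replicate 1 only SEP3, histone H3 isoform 2, Xylan synthase and EP1-like rose and only AIL5, Expansin-like A2 and COMITIN fell. Without 7–12 mm replicate 1, 5 rose and 6 fell.

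**Figure D2:**
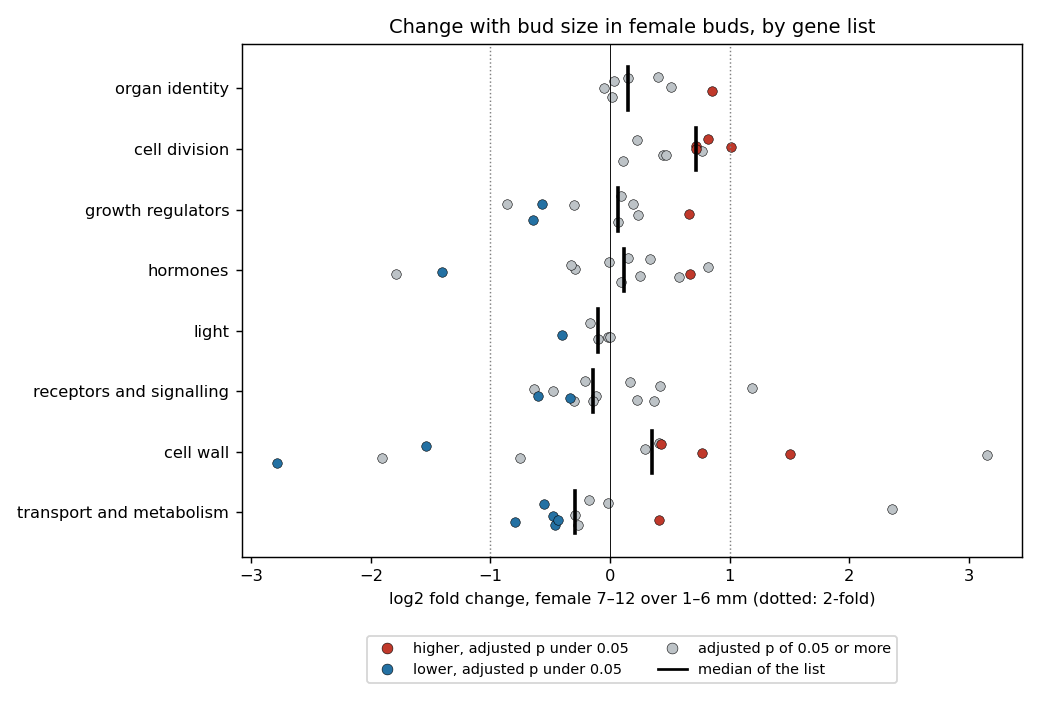
Log2 fold change of 7–12 over 1–6 mm in female buds for the named genes of 8 lists, 1 point per gene, with the median of each list as a black bar and 2-fold as dotted lines. All 9 cell division genes lie to the right of 0 (median 0.72), and 9 of the 11 transport and metabolism genes lie to the left (median -0.295). The 7 anther genes, nearly without counts in females, are not drawn.

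Among the 7 organ identity genes 1 rose and none fell, with a median log2 fold change of 0.151. SEP3, a MADS-box partner of the factors of all inner organs, had 91.0 and 115 CPM at 1–6 mm and 172 and 198 CPM at 7–12 mm. Both larger-bud libraries were above both smaller-bud ones. It rose by a log2 fold change of 0.86 (SE 0.11, adjusted p = 0.000372). PI, which with AP3 specifies petals and stamens, had 64.1 and 73.6 CPM at 1–6 mm and 99.3 and 80.2 CPM at 7–12 mm, with no overlap but an adjusted p of 0.085. The AP3 isoforms hardly differed. AP3 isoform 1 had 164 and 139 CPM against 154 and 156 CPM, and the 2 isoforms had log2 fold changes of 0.03 and 0.01 (SE 0.12 and 0.10). AP2, an outer organ gene, had 0.15 (SE 0.09, adjusted p = 0.332), and the auxin response factor gene ARF3, which patterns the pistil, had -0.05 (SE 0.14, adjusted p = 0.872). The CRABS CLAW/HMG-box gene, which the study named after either the carpel factor or an HMG-box protein, had 35.4 and 49.8 CPM at 1–6 mm and 69.9 and 49.3 CPM at 7–12 mm. The sizes overlapped for it (adjusted p = 0.0945).

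Of the 9 cell division genes, 4 rose and none fell, against 6.09% and 7.91% of all tested genes. All 9 had a positive log2 fold change, with a median of 0.72. Summed over the list, the level was 319 and 360 CPM at 1–6 mm and 616 and 454 CPM at 7–12 mm. The sum was thus higher in both larger-bud libraries, and most so in replicate 1. Histone H3 isoform 2, a core chromatin protein gene, had 47.8 and 55.4 CPM at 1–6 mm and 119 and 88.7 CPM at 7–12 mm. It was over 2-fold higher without overlap, with a log2 fold change of 1.01 (SE 0.14, adjusted p = 0.000542), and it passed under all 13 alternatives tried. Its neighbour histone H3 isoform 1 had 78.5 and 90.8 CPM at 1–6 mm and 159 and 119 CPM at 7–12 mm. It rose by 0.72 on the log2 scale (SE 0.13, adjusted p = 0.0037). Both are uninterrupted models of 411 nt on scaffold scf7180000007911, at 672577 to 672987 and 674428 to 674838 of the papaya PacBio assembly, and they may share reads.

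KIFC1, a kinesin of the mitotic and meiotic spindle, had 37.4 and 45.3 CPM at 1–6 mm and 84.4 and 62.0 CPM at 7–12 mm. Both larger-bud libraries were higher, by a log2 fold change of 0.82 (SE 0.16, adjusted p = 0.00498). TOP2, the topoisomerase that untangles DNA before chromosomes part, had 40.4 and 54.3 CPM against 92.0 and 63.0 CPM. It was higher without overlap, by 0.72 (SE 0.19, adjusted p = 0.0361). Shugoshin-1-like, a guard of cohesion at the centromere, had 6.81 and 6.14 CPM against 14.6 and 7.26 CPM and missed the threshold (adjusted p = 0.0552). NACK1, a kinesin of cell plate growth, had an adjusted p of 0.0559, and the condensin subunit gene NCAPD3 had 0.107. Cyclin-D3-1, which promotes entry into the cycle, and the repair gene RAD50 had log2 fold changes of 0.23 and 0.11 (adjusted p = 0.4 and 0.761).

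The rise of this list was uneven between the replicate pairs. The median log2 ratio of the 9 genes was 1.02 in the HiSeq2000 pair and 0.213 in the HiSeq2500 pair. TOP2 had 1.18 and 0.21 and histone H3 isoform 2 had 1.31 and 0.68 in these pairs. Without 1–6 mm replicate 1 only 1 of the 9 genes passed and without 7–12 mm replicate 1 only 2, while 5 and 6 passed without replicate 2 of the smaller or the larger buds. The anther genes, which mark stamens, were near 0 in all 4 libraries.

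**Figure D3:**
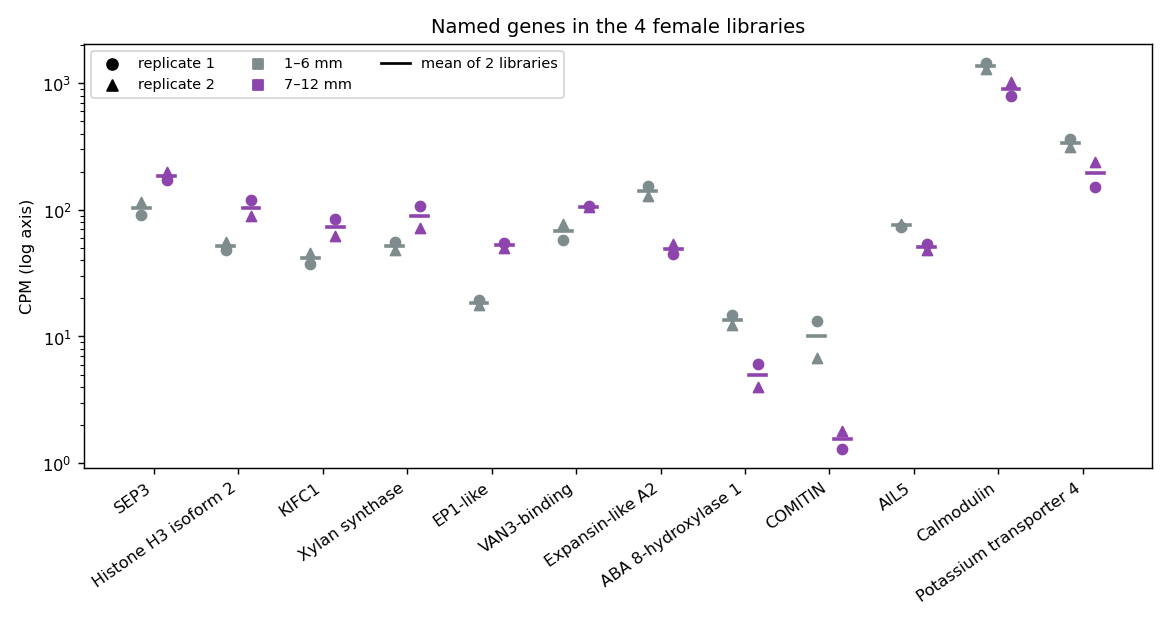
CPM on a log axis in each of the 4 female libraries for 12 genes that passed the test, with 1–6 mm in grey and 7–12 mm in purple, replicate 1 as circles, replicate 2 as triangles and the mean of 2 libraries as a line. No gene shows an overlap between the sizes, and COMITIN has the widest gap, with 13.3 and 6.76 CPM against 1.30 and 1.78 CPM. The genes were picked among those that passed, so the lack of overlap is no test. Of all tested genes 48.9% do not overlap either.

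Among the 9 growth regulators 1 rose and 2 fell (median log2 fold change 0.066). The AINTEGUMENTA gene ANT gene B (evm.model.supercontig_160.33), which sustains organ growth, had 41.5 and 48.5 CPM at 1–6 mm and 80.9 and 61.6 CPM at 7–12 mm. It rose without overlap by 0.66 (SE 0.15, adjusted p = 0.0106), a call lost without replicate 1 of either size. The related AIL5 went the other way, with 73.5 and 77.4 CPM at 1–6 mm and 53.6 and 48.0 CPM at 7–12 mm. It fell by 0.57 on the log2 scale (SE 0.11, adjusted p = 0.0052) and passed under all 13 alternatives. HAT4-like, an HD-ZIP gene of the family that responds to shade, had 21.3 and 19.0 CPM against 14.0 and 11.5 CPM. Both libraries of the larger buds were lower, and it fell by 0.65 (SE 0.14, adjusted p = 0.00914). The other AINTEGUMENTA gene, ANT gene A (evm.model.supercontig_129.70), and the vascular meristem gene WOX4 had log2 fold changes of 0.19 and 0.09 (adjusted p = 0.567 and 0.785).

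Of the 12 hormone genes 1 rose and 1 fell, with a median of 0.12. ABA 8-hydroxylase 1, an enzyme that breaks down abscisic acid, had 14.8 and 12.4 CPM at 1–6 mm and 6.02 and 3.97 CPM at 7–12 mm. Small and large buds did not overlap, and it fell by 1.41 on the log2 scale (SE 0.25, adjusted p = 0.00503), more than 2-fold. This call was lost without replicate 1 of either size, where the log2 fold change stayed at -1.28 or lower. The second enzyme of this kind, ABA 8-hydroxylase 4, had 13.1 and 8.60 CPM at 1–6 mm and 5.82 and 13.5 CPM at 7–12 mm. Its replicate pairs pointed in opposite directions, with log2 ratios of -1.15 and 0.65. VAN3-binding, named for a partner of a vein patterning protein in auxin transport, had 58.1 and 76.9 CPM against 107 and 105 CPM. It rose without overlap by 0.67 (SE 0.13, adjusted p = 0.00565), and this call too was lost without replicate 1 of either size.

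The brassinosteroid enzymes CYP90A1, CYP90B1-like, CYP90C1 and CYP85A2 did not pass, with log2 fold changes of 0.15 to 0.81. CYP85A2 was scarce, at 0.65 to 1.30 CPM. PINOID 2, a kinase of auxin transport, was nearly level, with 70.4 and 72.4 CPM at 1–6 mm and 70.7 and 71.2 CPM at 7–12 mm. The DELLA gene GAIP-B-like, a brake on gibberellin response, had a log2 fold change of 0.09 (SE 0.09, adjusted p = 0.595).

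Of the 5 light and clock genes 1 fell and none rose (median -0.102). PAT1, a GRAS gene of phytochrome A signalling, had 220 and 180 CPM at 1–6 mm and 148 and 154 CPM at 7–12 mm. It fell by 0.40 (SE 0.10, adjusted p = 0.0164), less than 2-fold and without overlap. The neighbouring models GIGANTEA and GIGANTEA-like, clock genes that may share reads, had log2 fold changes of -0.02 and 0.00 (SE 0.20 and 0.12). HY5, a factor of light response, and COP1-like, named for the ligase that removes it, had -0.10 and -0.17 (adjusted p = 0.565 and 0.582).

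Of the 13 receptor and signalling genes 2 fell and none rose (median -0.142). Calmodulin, a calcium sensor, had 1439 and 1292 CPM at 1–6 mm and 799 and 1015 CPM at 7–12 mm. It was lower in both larger-bud libraries, by 0.60 on the log2 scale (SE 0.12, adjusted p = 0.00628). RPK2, a receptor kinase of meristems and anthers, had 162 and 135 CPM against 122 and 113 CPM. It fell by 0.33 (SE 0.10, adjusted p = 0.0356), a call that 7 of 13 alternatives did not keep. EMS1/EXS-like, which in anthers receives the ligand TPD1, had 36.7 and 58.6 CPM at 1–6 mm and 23.2 and 38.3 CPM at 7–12 mm. Its sizes overlapped, although both replicate pairs were lower at 7–12 mm, with log2 ratios of -0.66 and -0.61 (adjusted p = 0.0676). TPD1 had 5.79 and 5.16 CPM against 9.17 and 4.93 CPM and also overlapped (adjusted p = 0.551). The endosperm growth kinase gene HAIKU2 had 1657 and 1363 CPM against 1414 and 1349 CPM, and CLV1, a kinase that limits meristem size, had 6.66 and 7.25 CPM against 8.69 and 7.39 CPM. Neither passed the test.

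The cell wall list held the widest changes, with 3 of 10 genes higher and 2 lower (median 0.352). Expansin-like A2, of a family related to wall-loosening proteins, had 154 and 129 CPM at 1–6 mm and 44.7 and 54.1 CPM at 7–12 mm. It was lower in both larger-bud libraries by a wide margin. It fell by 1.54 on the log2 scale (SE 0.12, adjusted p = 5.26e-05), and it fell under all 13 alternatives, where the values ran from -1.74 to -1.30. The gene lies on the plus strand of scaffold scf7180000008070 from 259377 to 260915 in 5 exons.

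EP1-like, named after a secreted glycoprotein of carrot epidermis, had 19.4 and 17.7 CPM at 1–6 mm and 54.8 and 50.2 CPM at 7–12 mm. It stood far higher in both larger-bud libraries, and the replicate pairs gave nearly equal log2 ratios of 1.49 and 1.50. It rose by 1.50 (SE 0.16, adjusted p = 0.00015) and stayed between 1.48 and 1.61 under the 13 alternatives. COMITIN, named for an actin-binding protein of Dictyostelium, had 13.3 and 6.76 CPM at 1–6 mm and 1.30 and 1.78 CPM at 7–12 mm. The larger buds held 19 and 13 counts, fewer than both libraries of the smaller buds with 183 and 55. It fell by 2.78 on the log2 scale (SE 0.40, adjusted p = 0.00119). EP1-like, which the study also labelled COMITIN, and COMITIN are neighbours on the plus strand of scaffold scf7180000008679. They lie at 339853 to 341213 and 330882 to 332208, each without an intron. These neighbours of a shared label moved in opposite directions, and they may share reads.

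Xylan synthase, named for the enzyme of the xylan backbone, had 56.1 and 48.0 CPM at 1–6 mm and 107 and 71.7 CPM at 7–12 mm. It rose without overlap by 0.77 (SE 0.11, adjusted p = 0.000866). DUF642, of a family of cell wall proteins, rose by 0.43 (SE 0.11, adjusted p = 0.0182), a call that 7 of 13 alternatives did not keep. Beta-glucosidase 32-like had 14.0 and 10.9 CPM at 1–6 mm and 0.89 and 7.39 CPM at 7–12 mm. The sizes did not overlap, but the spread at 7–12 mm was wide and it did not pass (adjusted p = 0.099). CSLD1, a cellulose synthase-like gene, had counts in only 1 female library, of 7–12 mm, so its plotted change carries no weight. The same holds for the gene labelled Egg cell secreted protein-like.

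Of the 11 transport and metabolism genes 5 fell and 1 rose, all less than 2-fold, with a median of -0.295. Potassium transporter 4 had 365 and 312 CPM at 1–6 mm and 153 and 239 CPM at 7–12 mm. It was lower in both larger-bud libraries, by 0.80 on the log2 scale (SE 0.18, adjusted p = 0.0157). AMT1-2, an ammonium transporter gene, had 224 and 198 CPM against 125 and 165 CPM. It fell without overlap by 0.56 (SE 0.12, adjusted p = 0.00761). UGT80A2, which adds glucose to sterols, fell by 0.46 and Spinster homolog 3 by 0.48, and Thioredoxin reductase 2-like fell by 0.43 (adjusted p = 0.0197, 0.0408 and 0.0327). Of 13 alternatives, 5, 8 and 6 did not keep these calls. The PPR protein gene, of a family that acts on organelle RNA, rose by 0.41 (adjusted p = 0.0488), and 10 of 13 alternatives did not keep that call.

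The change with bud size was also tested against that in males and hermaphrodites, with an interaction term in the same fit. It differed between females and males for 1472 genes (7.61%), 774 (4.0%) higher and 698 (3.61%) lower in females than in males, and for 896 without female 1–6 mm replicate 1. The balance of higher and lower genes turned in DESeq2 (618 and 677), limma-voom (830 and 867), without the fold limit (1365 and 1572) and without female 7–12 mm replicate 2 (892 and 1074). The change differed between females and hermaphrodites for 847 genes (4.38%), 445 (2.3%) higher and 402 (2.08%) lower, and for 463 without the replicate block. Here the balance turned in DESeq2 (308 and 456), with RLE size factors (411 and 432), without the block (218 and 245) and in further alternatives given below. Against hermaphrodites 330 genes were called when female 1–6 mm replicate 1 was left out, 530 when female 7–12 mm replicate 1 was, 1365 when female 7–12 mm replicate 2 was and 411 when hermaphrodite 1–6 mm replicate 1 was. Without male and hermaphrodite 1–6 mm replicate 2 together, the counts were 965 against males and 395 against hermaphrodites. Within each sex the sizes differed for 1403 genes in males (7.25%), 722 higher and 681 lower, and for 850 in hermaphrodites (4.4%), 559 higher and 291 lower. Both interactions use the same 4 female libraries, and the variety differs in the second. Sizes were matched by length, and the study describes male buds as smaller than hermaphrodite and female ones. Stage at a given length may therefore differ between the sexes, and sex and stage cannot be told apart.

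The genes called in females were looked up in the other sexes, where a gene that was not called is not thereby shown to differ. Of the 217 genes called higher in females, 57 (26.3%) were called higher in males and 20 (9.22%) lower. In hermaphrodites 55 (25.3%) were called higher and 9 (4.15%) lower. Over all tested genes 3.73% were called higher and 3.52% lower in males, and 2.89% higher and 1.5% lower in hermaphrodites. Calls in both directions were thus above these shares. The 57 shared genes were 7.90% of the male list and the 55 were 9.84% of the hermaphrodite list, and 37 genes were called higher in all 3 sexes. Of the 415 called lower in females, 61 (14.7%) were called lower in males and 18 (4.34%) higher, against 3.52% and 3.73% of all tested genes. In hermaphrodites 64 (15.4%) were called lower and 9 (2.17%) higher, against 1.5% and 2.89% of all tested genes. These 61 and 64 genes were 8.96% of the male and 22.0% of the hermaphrodite list, and 28 were called lower in all 3 sexes. The difference between the changes was itself called, in the female direction, for 81 of the 217 and 164 of the 415 genes against males. Against hermaphrodites it was called for 65 and 108. Over all 19339 tested genes it was called higher for 774 and lower for 698 against males, and for 445 and 402 against hermaphrodites. It was called against both for 47 and 82 genes, and for 321 and 248 of all tested genes. These interactions use the female libraries that selected the genes and are no independent test. Under 1 CPM in every male and hermaphrodite library were 8 of the 217 and 12 of the 415 genes, or 3.69% and 2.89%, against 0.771% of all tested genes.

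**Figure D4:**
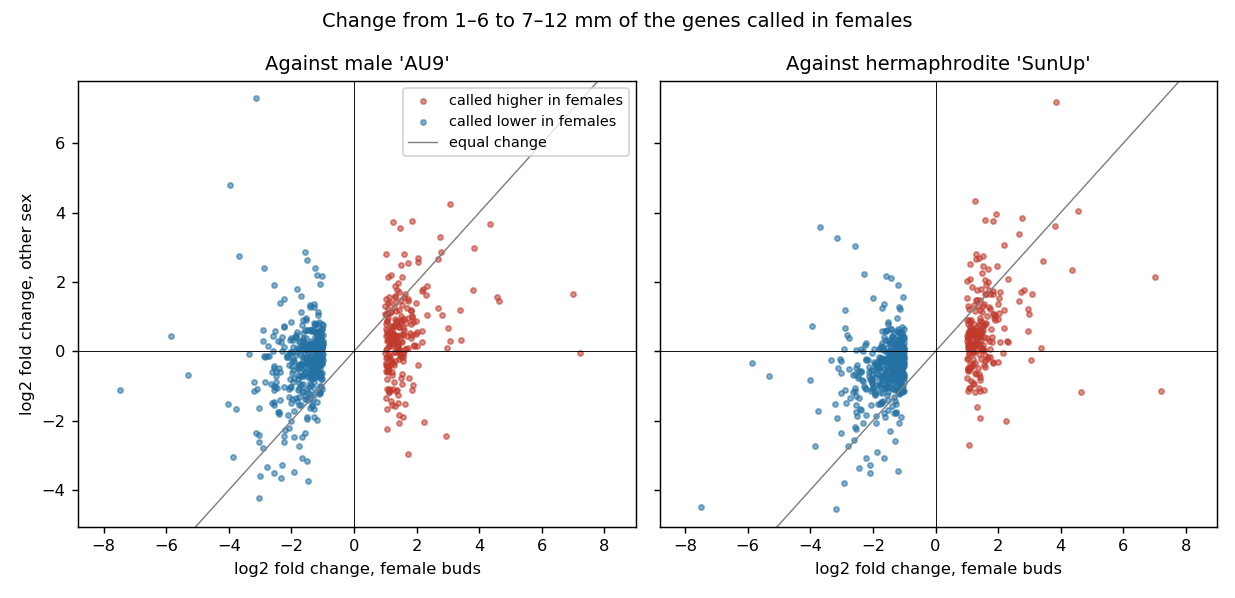
Log2 fold change of 7–12 over 1–6 mm in males (left, y axis) and hermaphrodites (right, y axis) against that in females (x axis) for the 217 genes called higher (red) and the 415 called lower (blue) in females. The medians of the red points are 0.45 in males and 0.51 in hermaphrodites, and those of the blue points are -0.27 and -0.48. The genes were selected by their female change, which can by itself bring medians nearer to 0 in the other sexes. The part of the selection in these medians was not tested.

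Cell division genes differed in direction between the sexes in buds matched by length. Of the 9 genes, 8 fell in males and 5 in hermaphrodites and none rose in either, against 4 that rose in females. Of all tested genes, 10.3% rose and 8.31% fell in males, 6.06% and 4.72% in hermaphrodites, and 6.09% and 7.91% in females. The summed level was 428 and 420 CPM in small and 226 and 203 CPM in large male buds, and 490 and 467 CPM in small and 319 and 285 CPM in large hermaphrodite buds. Large female buds, at 616 and 454 CPM, thus stood above both libraries of large buds of either other sex. The difference between the changes was called for 8 of the 9 genes against males, and for 5 against hermaphrodites. For TOP2 the female change exceeded the male one by 2.55 on the log2 scale (SE 0.29, adjusted p = 0.000419) and the hermaphrodite one by 1.74 (SE 0.28, adjusted p = 0.00593). For histone H3 isoform 2 these were 1.58 and 1.78 (adjusted p = 0.000266 and 0.000526). The study chose these genes on differences between the sexes in the same libraries, so these counts are not independent evidence of their direction. The anther list, which marks cells that females lack, was between 788 and 1878 CPM in the other sexes, and its part in these differences was not tested.

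**Figure D5:**
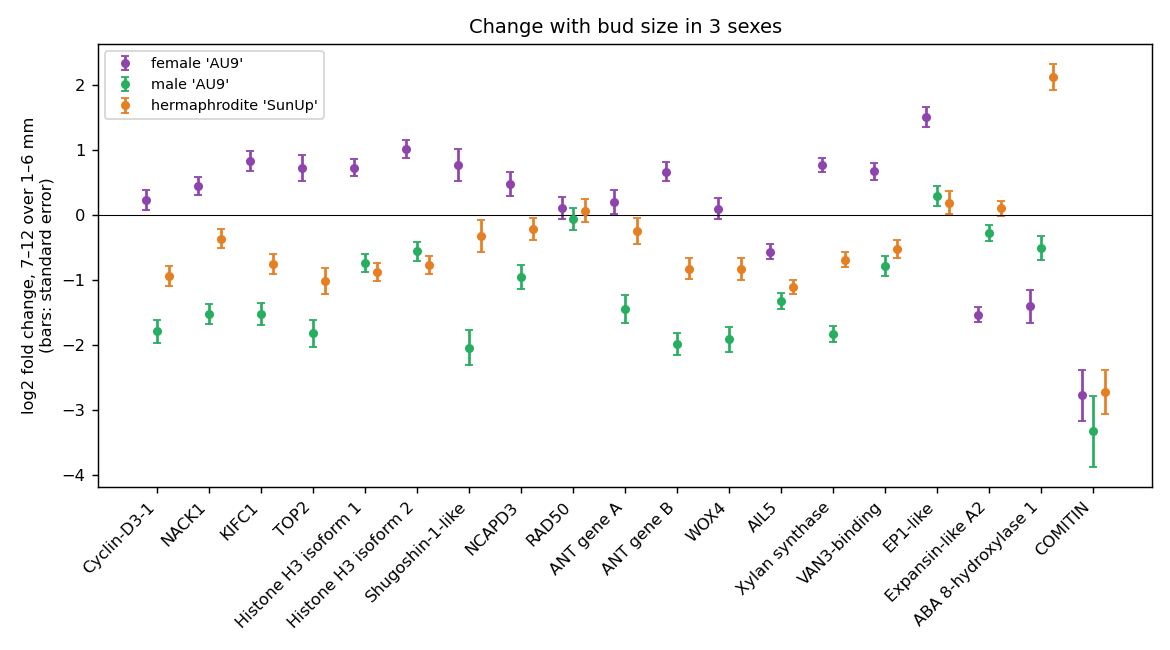
Log2 fold change of 7–12 over 1–6 mm with its standard error for 9 cell division genes and 10 further genes in females (purple), males (green) and hermaphrodites (orange). Female values of the cell division genes lie between 0.11 and 1.01, the male ones between -2.04 and -0.07 and the hermaphrodite ones between -1.02 and 0.06, and COMITIN is low in all 3 sexes.

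Of the 9 growth regulators, ANT gene B had the widest gap between females and males. It rose in females and fell in males by 1.99 and in hermaphrodites by 0.83. The female change exceeded the male one by 2.65 (SE 0.22, adjusted p = 2.65e-05) and the hermaphrodite one by 1.49 (SE 0.22, adjusted p = 0.00231). WOX4, at a log2 fold change of 0.09 in females, fell in males by 1.92 and in hermaphrodites by 0.84. AIL5 fell in all 3 sexes, with -0.57 in females, -1.33 in males and -1.11 in hermaphrodites. The female fall was the smaller by 0.76 against males (adjusted p = 0.00755) and by 0.55 against hermaphrodites (adjusted p = 0.0484).

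Expansin-like A2 and EP1-like passed the test in females and in neither of the other sexes, and the difference itself passed for both. The log2 fold change of Expansin-like A2 was -0.28 for males and 0.10 for hermaphrodites (adjusted p = 0.132 and 0.705), where it fell by 1.54 in females. The female change was lower by 1.26 than the male one (adjusted p = 0.000462) and by 1.63 than the hermaphrodite one (adjusted p = 0.000388). EP1-like had 0.29 for males and 0.19 for hermaphrodites (adjusted p = 0.242 and 0.589). The female rise exceeded them by 1.22 and 1.31 (adjusted p = 0.00294 and 0.00552). Xylan synthase fell in males by 1.83 and in hermaphrodites by 0.70, so that the female change exceeded theirs by 2.60 and 1.46 (adjusted p = 5.43e-06 and 0.00048). COMITIN fell in all 3 sexes, with log2 fold changes of -2.78 in females, -3.34 in males and -2.73 in hermaphrodites, and the differences between these falls did not pass (adjusted p = 0.69 and 0.975).

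ABA 8-hydroxylase 1 took opposite directions in females and hermaphrodites. It fell by 1.41 in females and rose by 2.12 in hermaphrodites (adjusted p = 0.000138), with -0.51 in males (adjusted p = 0.0851). The difference from hermaphrodites was -3.53 (SE 0.32, adjusted p = 0.000421), and sex and variety cannot be told apart in it. SEP3 rose in all 3 sexes, by 0.86 in females, 0.68 in males and 0.46 in hermaphrodites, and neither difference from females passed (adjusted p = 0.505 and 0.142). AP3 isoform 1 was level in females and rose by 1.29 in males, a difference of -1.25 (SE 0.17, adjusted p = 0.000391).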

How the data were processed

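The authors used FastQC (0.11.5) for read quality, Trimmomatic (0.36) for trimming, HISAT2 (2.0.5) for alignment to the papaya PacBio assembly, SAMtools (1.3.1) for conversion and featureCounts (1.5.2) for counting over exons. The deposited counts are whole, unnormalized reads per gene. Per the file headers, a read with several alignments was counted at every one, with the same strand setting in all libraries and without the read-pair option. Mates of replicate 2 were thus handled as single reads, and its totals may hold only part of its reads, since the fit of the strand setting to each mate was not tested. Gene models are coding sequences placed with GMAP and hold no untranslated regions.

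The analysis used edgeR 4.0.16 under R 4.3.3. Genes were kept by filterByExpr (minimum count 10) on the 6 groups, libraries were scaled by TMM, and 1 fit over the 12 libraries held a term per group and the replicate number as a block. The pairing comes from the sequencing platform, and deviations from group means correlated between same-numbered libraries with r = 0.734 to 0.839 over 15 pairs of groups (0.805 between the female sizes). The biological coefficient of variation was 0.110 with the block and 0.307 without. Totals over the 12 libraries were 4520811 to 16564137 counts. P-values measure the spread between these libraries. Log2 ratios within a replicate pair use log2 CPM with a prior count of 2. Counting intervals (95%) and floors (3 counts) cover counting error only.

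The comparison, the gene lists and the alternatives were chosen with earlier results of these data known. Named genes are those the study tabulated, under its names, plus the 2 called risers and the 2 called fallers with the widest fitted changes that moved the same way in both pairs without overlap. Alternatives were no block, no filter, 1 CPM in 2 libraries, RLE size factors, DESeq2 1.42.0, limma-voom (limma 3.58.1), legacy=FALSE, no fold limit, thinning to 4520811 counts, the female libraries alone, and leaving out libraries. For single genes the setting without a fold limit is the main fit, so its outcome was fixed in advance.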

Additional observations from a re-analysis of the deposited data

Results flagged for a closer look

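Each of the following named genes changed with bud size by more than 2-fold more or less in females than in another sex, at an adjusted p under 0.05 of the interaction term in edgeR's quasi-likelihood test. Values are the female log2 change minus that of the other sex. Most of these genes were picked by the study on differences between the sexes in these libraries, so their number is not independent evidence.

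Against males the female change was higher for the cell division genes Cyclin-D3-1 (2.02), NACK1 (1.97), KIFC1 (2.35), TOP2 (2.55), histone H3 isoforms 1 (1.47) and 2 (1.58), Shugoshin-1-like (2.81) and NCAPD3 (1.42). It was also higher for the growth regulators ANT gene A (1.64), ANT gene B (2.65) and WOX4 (2.01). Further genes with a higher female change were CYP83B1 (4.55), an enzyme near auxin synthesis, VAN3-binding (1.46), TPD1 (2.13), Xylan synthase (2.60) and EP1-like (1.22). It was lower for AP3 isoform 1 (-1.25), ABA 8-hydroxylase 4 (-2.61), the kinase gene CRCK2 (-1.05), Expansin-like A2 (-1.25), the sugar transporter gene SLC35D (-1.66), DUF569 (-3.27) and evm.model.supercontig_129.37 (-6.31). The last value is fitted on no counts in the larger female buds and is no measure of size.

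Against hermaphrodites, of another variety, the female change was higher for Cyclin-D3-1 (1.16), KIFC1 (1.58), TOP2 (1.74) and histone H3 isoforms 1 (1.60) and 2 (1.78). It was higher too for ANT gene B (1.49), AIL1 (1.90), UPBEAT1 (1.05), VAN3-binding (1.19), Xylan synthase (1.46), EP1-like (1.31) and evm.model.supercontig_65.44 (8.35). It was lower for ABA 8-hydroxylase 1 (-3.53), XBAT32/33 (-1.37), Expansin-like A2 (-1.63) and evm.model.supercontig_129.37 (-5.52). The values of the unnamed genes rest on few or no counts in 1 of the groups.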

How the results depend on the processing

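The count of genes called between the female sizes (632) was 376 with no replicate block, which ignores the pairing by platform, 2708 without the fold limit, 395 thinned to the smallest total and 284 with the 4 female libraries alone. It ran from 266 to 1162 when each female library was left out in turn. The count that differed from males (1472) was 1040 without the block, 2937 without the fold limit and 965 without male and hermaphrodite 1–6 mm replicate 2 together, and 896 to 1966 with 1 library left out. The count that differed from hermaphrodites (847) was 463 without the block, 1647 without the fold limit, 469 thinned and 395 without those libraries together, and 330 to 1365 with 1 library left out. In DESeq2 it held 308 higher and 456 lower genes, against 445 and 402. This balance also turned with no block (218 and 245), with RLE size factors (411 and 432) and thinned (222 and 247). It turned as well without female 1–6 mm replicate 1, female 7–12 mm replicate 2 or either hermaphrodite replicate 2. The same was seen without male and hermaphrodite 1–6 mm replicate 2 together. Thinning leaves fewer reads by construction. Leaving out a library lowered some counts and raised others, and the cause of these and the other shifts was not tested. The remaining alternatives stayed within 1.5 times these counts, and DESeq2 called 503 genes between the female sizes and limma-voom 750. No called named gene changed direction under the alternatives run for single genes, which left out the fit of the 4 female libraries alone. The replicate block changed the call of no named gene between the female sizes other than the 13 named beside the lists. Precision is limited by 2 libraries a group and by the smaller totals of replicate 2.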
